A study of Arabidopsis thaliana with 12 samples.

Results

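To assess which leaf genes differ between high and low intensity when light is held constant through the day, the differentially expressed genes (DEGs) of SQH vs SQL were taken from the authors' deposited table of that comparison, without any further selection. There were 665 genes, out of 6520 distinct loci in the deposited tables of 4 comparisons. SQH is square light of high intensity and SQL is square light of low intensity, a square regime being an LED programme with the lamp at a constant level during the day. FLH and FLL are the fluctuating counterparts of high and low intensity, programmed after a natural record of light. All plants were Arabidopsis thaliana Col-0, the reference accession, well watered, acclimated for 22 days per the labels, and polyadenylated leaf RNA was sequenced in 3 independent libraries per regime. A positive log2 fold change means higher expression in SQH than in SQL.

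The table lists a gene when its adjusted p was at most 0.05 and its absolute log2 fold change at least 0.5. Of 21349 genes tested, 3.11% were called, 1.57% as higher in SQH and 1.55% as lower in SQH, which gives 335 higher and 330 lower genes. Because the rule used these fold changes, they are given below as a description. The gene lists were chosen with earlier results of these data known, so their shares and directions are a description too. Values per library are not analysed here, so the level of a gene is its mean normalised count over all 12 libraries of the series, which is not corrected for gene length, and its error is the standard error (SE) of the deposited log2 fold change. In the study's alignment statistics the second SQL library stands with the FLL libraries and apart from the other SQL and SQH libraries. Whether its label was exchanged cannot be told from these tables, which give no values without it, and every value of SQH vs SQL below includes it. In whole leaves, fewer cells of a type and less RNA per cell cannot be told apart.

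A leaf that receives more light fixes more carbon, and sugar is itself a signal: when carbon is short, the SnRK1 kinase pathway turns on genes for catabolism and recycling, and sugars repress the same genes. High light is also known in leaves for anthocyanin and other phenylpropanoids, which screen the tissue, and for stress signals that run from the chloroplast and the mitochondrion to the nucleus. Salicylic acid and jasmonate are defence hormones that often act against each other, and the cell wall is loosened during growth by enzymes such as xyloglucan endotransglucosylases and expansins.

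The marker lists for cell types of the leaf were short. In them, 0 of 11 mesophyll and photosynthesis genes, 0 of 6 guard cell genes, 0 of 4 phloem genes and 0 of 5 senescence genes were called. Of all tested genes 3.11% were called, so with so few markers a count of 0 is near that share. It gives no result about the cell composition of the leaf. Of 7 root and endodermis markers, CASP2, which builds the Casparian strip, was called (5.82 ± 1.76, SE) at a mean normalised count of 7.44. The part of other cell types in the results was not tested.

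Over the 12 libraries, those of fluctuating light included, the genes higher in SQH had a median mean normalised count of 256 and those lower in SQH one of 923. This mean is no level in square light: DIN10, described below, averaged 9986 over all libraries but 70.5 in SQH and 1434 in SQL. Mean normalised counts of 1000 or more were reached by 62 of the higher and 156 of the lower genes, and a count of at least 10000 by 2 and 12. At the other end, 13 higher genes and 2 lower genes had a count under 10. The median absolute log2 fold change was 2.11 for the higher genes (4.32-fold) and 2.38 for the lower genes (5.21-fold). In each direction 42 genes reached an absolute log2 fold change of 4, but the 42 higher genes had a median mean normalised count of 17.4, against 257 for the 42 lower genes. Among genes with counts of 1000 to 10000 the median absolute log2 fold change was 1.54 for the 60 higher genes and 2.27 for the 144 lower genes. For 29 higher genes the mean in SQL, and for 7 lower genes the mean in SQH, could not exceed 3 counts, so their fitted fold changes are no bound on the real ones.

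**Figure D1:**
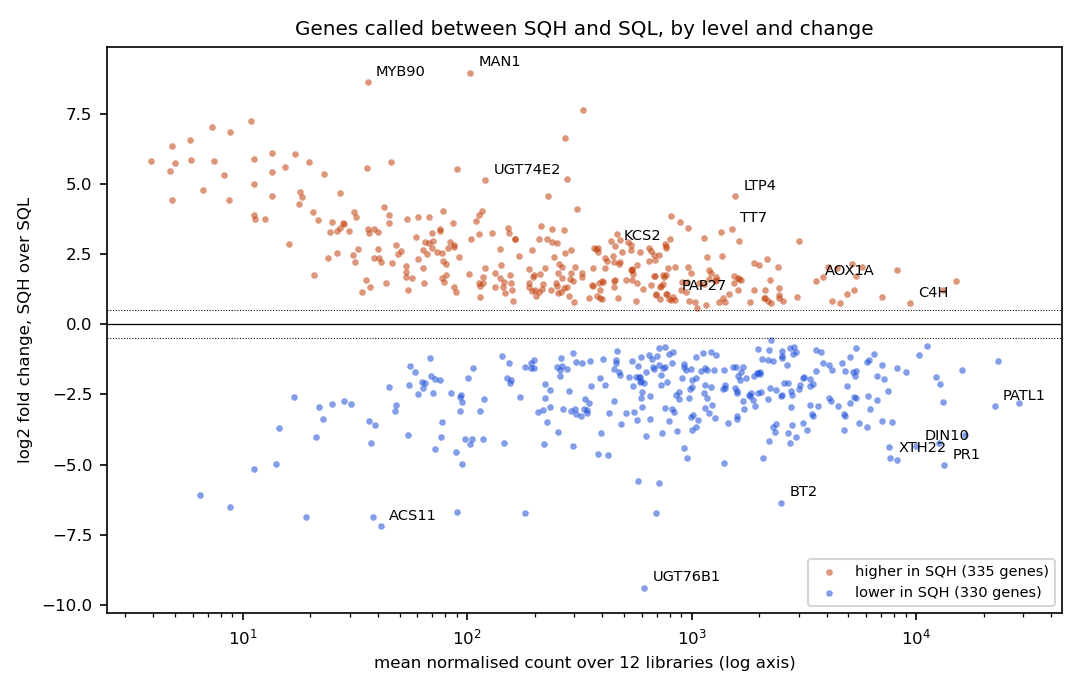
Log2 fold change of SQH over SQL (vertical axis) against the mean normalised count over 12 libraries (log axis), 1 point per gene, for the 335 genes higher in SQH and the 330 genes lower in SQH. Dotted lines mark the fold-change threshold of 0.5. The largest positive values sit at low counts, and the 12 lower genes with counts of at least 10000 form the right end of the lower cloud.

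The smallest changes in the table were those of AT5G43740, a CC-NBS-LRR resistance protein (0.57 ± 0.17, SE), and KUP5, a potassium permease (-0.57 ± 0.18, SE). The adjusted p nearest to the threshold was 0.0498 for AT1G05170, a galactosyltransferase family gene, among the higher genes and 0.0497 for AT1G24530, a WD40 repeat gene, among the lower ones. By the gaps in the ranks of the deposited p-values, 1 tested gene passed the adjusted p and missed the fold-change threshold.

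Anthocyanin and phenylpropanoid genes were higher in SQH. Of a list of 37 genes of the pathway, 10 were called, all of them higher, with a median log2 fold change of 2.18. MYB90, a MYB factor that turns on anthocyanin synthesis, rose by 8.66 ± 1.37 (SE) at a low level, a mean normalised count of 36.1. TT7, the flavonoid 3′-hydroxylase, was 3.41 ± 0.65 higher at a count of 1506. AT1G03940 and AT1G03495, acyltransferases that decorate anthocyanins, rose by 2.72 ± 0.61 and 2.67 ± 0.52. Early steps of the pathway changed less. C4H, the cinnamate hydroxylase, was 0.75 ± 0.19 higher at a count of 9389, 4CL1, a coumarate ligase, 1.09 ± 0.33 higher at 4907, and 4CL2 1.48 ± 0.43 higher at 156. The related MYB4, MYB7 and MYB32, which are known as repressors of phenylpropanoid genes, were also higher, at 2.30 ± 0.46, 2.06 ± 0.60 and 2.03 ± 0.43. Of 17 laccases, which polymerise phenolics in the wall, LAC12 (3.41 ± 0.90) and LAC5 (3.25 ± 0.95) were called.

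Genes that make suberin, the lipid and phenolic polymer of sealed cell walls, were called at mostly low to moderate counts. Of 21 suberin genes 12 were not called, 8 were higher with a median log2 fold change of 3.51, and 1 was lower. At an adjusted p of at most 0.01 only 1 of the 8 higher genes was left. They cover successive steps: KCS2, an elongase of fatty acids (2.80 ± 0.46), CYP86B1, a hydroxylase of the long chains (3.41 ± 1.03), FAR5, which reduces them to alcohols (2.72 ± 0.72), and GPAT5, which couples them to glycerol (3.9 ± 1.1). ASFT, which adds ferulate, rose by 2.57 ± 0.79, and ABCG6, an exporter of the building blocks, by 3.62 ± 0.96. The MYB factor MYB41, an activator of suberin synthesis, was 4.67 ± 1.25 higher at a count of 27.2, and the P450 gene AT5G08250 was 5.90 ± 1.61 higher at 11.2. The exception was KCS20, a further elongase, at -0.92 ± 0.28 and a count of 3583. Reads of KCS2 are less certain, since 74.5% of its locus overlaps another annotated locus and the strandedness of the counting is not given in the sources used here. CASP2, the endodermal marker named above, moved in the same direction. In the neighbouring list of cutin and wax genes 3 of 20 were called: WSD1, a wax ester synthase (1.57 ± 0.45), was higher, and the regulators MYB30 (-1.88 ± 0.31) and DEWAX (-4.25 ± 0.50) were lower.

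A further list holds nuclear genes that answer to disturbed mitochondria. Of 19 genes of this mitochondrial retrograde response 9 were called, all higher, with a median log2 fold change of 2.44, and 4 of the 9 passed an adjusted p of 0.01. AOX1A, the alternative oxidase that bypasses part of the respiratory chain, had the highest count of them, 3589, and a change of 1.54 ± 0.46. AT2G21640, annotated as a marker of oxidative stress, was 3.38 ± 0.61 higher at a count of 271, and UGT74E2, a glucosyltransferase of an auxin precursor, 5.13 ± 1.15 higher at 120. The MATE transporter AT2G04050 rose by 5.55 ± 1.15 and AT5G09570 by 5.33 ± 1.48, the last at a count of 8.21 only. Smaller changes were those of AT2G41730 (2.44 ± 0.72), the dioxygenase AT5G43450 (2.11 ± 0.46), the factor NAC13 (1.75 ± 0.47), which binds the promoters of such genes, and CRF6 (1.24 ± 0.35).

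NAC13 and its relatives recognise the mitochondrial dysfunction motif, which is taken here as CTTG and CAAG with 5 free bases between them. The motif was searched on both strands from 250 bases before to 50 bases after each gene's start in RefSeq (TAIR10.1), and 6 of 323 promoters of genes higher in SQH (1.86%), 0 of 324 promoters of lower genes and 248 of 27561 promoters of all protein-coding genes (0.900%) held it. In the mitochondrial list it stood in 4 of the 9 called genes and in 2 of the 10 not called. The stretches around the motif are shown for 5 of the 6 genes because they place it in its sequence, with the motif in capitals. Each runs 5′ to 3′ on the strand of its gene.
AT5G24640, chr5:8436256-8436300, plus strand: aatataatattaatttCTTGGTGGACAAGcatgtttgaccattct
AT2G41730, chr2:17409345-17409389, plus strand: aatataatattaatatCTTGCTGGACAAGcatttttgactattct
AT2G21640, chr2:9254311-9254355, plus strand: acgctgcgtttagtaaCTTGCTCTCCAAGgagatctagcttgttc
AT4G12735, chr4:7494315-7494359, minus strand: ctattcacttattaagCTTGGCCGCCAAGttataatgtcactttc
AT2G04050, first copy, chr2:1339655-1339699, minus strand: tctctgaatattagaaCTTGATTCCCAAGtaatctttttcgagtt
AT2G04050, second copy, chr2:1339596-1339640, minus strand: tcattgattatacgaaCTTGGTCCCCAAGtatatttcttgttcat
The stretches of AT5G24640 and AT2G41730 were identical at 41 of 45 bases, while that of AT2G41730 matched AT2G21640 at 23 of 45. AT5G24640, which was not in the list, was 7.03 ± 1.59 higher in SQH at a count of 7.33, and AT4G12735, also outside it, 4.03 ± 0.87 higher at 77.6. In AOX1A the motif began 25 bases after the start.

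In a list of genes of abscisic acid (ABA) and dehydration, most called genes were higher in SQH. Genes outside the list were not counted. Among them ERD15, a dehydration-induced gene, and ABO3, annotated as ABA overly sensitive mutant 3, were lower, as given below. Of the 37 genes of the list 8 were called, 7 of them higher with a median of 3.88, and 3 of the 7 passed an adjusted p of 0.01. NCED3, the rate-limiting enzyme of ABA synthesis, was 2.70 ± 0.83 higher in SQH, and CYP707A3, which breaks ABA down, was the only lower gene of the list, at -3.15 ± 0.53. Among genes that respond to the hormone, the lipid transfer protein genes LTP4 and LTP3 rose by 4.59 ± 1.13 and 2.99 ± 0.76 at counts of 1559 and 2997. They are adjacent paralogs, so reads may be split between them. GOLS2, a galactinol synthase, rose by 3.88 ± 1.01, the linker histone HIS1-3 by 2.94 ± 0.87, and the late embryogenesis genes AT2G42560 and AT3G17520 by 7.64 ± 2.25 and 5.80 ± 1.75. The SEs of these 2 late embryogenesis genes were among the large ones of the table, whose median SE was 0.55 among the higher genes.

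The G-box, CACGTG, through which ABA and light signals are read, was held by 11.8% of promoters of higher genes, 7.10% of lower genes and 7.65% of all genes on either strand. The overlapping ABA element with the letters ACGTGTC was held by 9.29%, 5.25% and 4.32%. Of the called genes of the ABA list 4 of 8 had a G-box, CYP707A3 among them, and of those not called 6 of 29. The sites of both late embryogenesis genes are shown because these genes changed most in the list, with the G-box in capitals.
AT2G42560, chr2:17717113-17717150, minus strand: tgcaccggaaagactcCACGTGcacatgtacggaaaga
AT3G17520, chr3:6000580-6000617, minus strand: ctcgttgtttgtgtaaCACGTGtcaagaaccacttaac

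Jasmonate genes were called in small number. Of 23 genes 4 were called, all higher: CYP94B1, which inactivates jasmonoyl-isoleucine (3.05 ± 0.80), the factors MYC2 (1.93 ± 0.54, count 8207) and MYC4 (1.60 ± 0.46), and the repressor JAZ12 (0.78 ± 0.23). At an adjusted p of at most 0.01 there was 1 of these 4. Nearly the whole MYC2 locus (98.5%) overlaps another locus on the opposite strand. Of 22 iron genes 3 were called, all higher, and 1 of them passed an adjusted p of 0.01. These were BHLH100, an iron deficiency factor (5.59 ± 1.73, count 36.0), the metal transporter YSL2 (2.83 ± 0.75) and the factor PYE (2.58 ± 0.65). Of 16 phosphate genes, AT1G69480, an EXS domain protein (3.0 ± 0.82), and the purple acid phosphatase PAP27 (0.99 ± 0.16) were higher, and the mitochondrial phosphate carrier PHT3;2 was lower (-4.10 ± 1.23). Of 15 photoprotection and high light markers 2 were called. The glucose 6-phosphate translocator GPT2 was 2.97 ± 0.75 higher, and NPQ1, the violaxanthin de-epoxidase of the xanthophyll cycle, was lower by 0.98 on the log2 scale (SE 0.30) at a count of 3755.

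Among higher genes outside these lists with counts from 100 upwards, large changes were those of MAN1, a mannanase (8.98 ± 2.25), AT4G33467 of unknown function (6.67 ± 1.95), the ankyrin repeat gene AT5G15500 (5.19 ± 1.19) and PYD4, an aminotransferase of pyrimidine breakdown (4.59 ± 1.24). These counts are means over the 12 libraries and no level in square light. AT4G33467 averaged 18.4 in SQH and 0.18 in SQL, but 914 in FLH, and the mean of MAN1 in SQL could not exceed 0.82. MAN1 and AT4G33467 overlap other loci over 63.4% and 64.7% of their length. The protein kinase gene AT5G24080 was 4.12 ± 1.08 higher and AT4G26950, a DUF584 senescence regulator, 4.04 ± 1.11. Within the same count limit, the lowest p-values of higher genes outside the lists came with moderate changes. They were those of the receptor kinase gene AT5G67200 (1.38 ± 0.23), the MAP kinase gene MPK19 (1.57 ± 0.27) and AT1G22160, an FLZ-type zinc finger gene (2.46 ± 0.43). Below that limit, MYB90 had a smaller p with a change of 8.66 ± 1.37. Among higher genes, the highest mean normalised counts over the 12 libraries were those of AT1G52000, a mannose-binding lectin (count 15040, 1.55 ± 0.42), and MBP1, which binds myrosinase, the enzyme that releases mustard oils (count 13138, 1.22 ± 0.38). The filaggrin-like gene AT1G64370 was 0.97 ± 0.29 higher at 7058.

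In some families all called genes were higher in SQH. Of 10 NF-YA genes, subunits of a CCAAT-binding factor, 4 were called and all were higher: NF-YA2 (2.15 ± 0.61), NF-YA10 (2.0 ± 0.62), NF-YA7 (1.58 ± 0.31) and NF-YA6 (1.37 ± 0.36). Of 55 MATE efflux genes 4 were higher, from 1.24 ± 0.36 for AT4G21910 at a count of 5316 to the value of AT2G04050 given above. Of 57 receptor-like proteins 4 were higher (RLP6 2.56 ± 0.56, RLP24 2.41 ± 0.57, RLP40 2.26 ± 0.54, RLP1 1.76 ± 0.52), although 90.8% of the RLP40 locus overlaps another locus. Also higher were 3 of 18 FLZ-type genes, 4 of 58 HXXXD acyltransferases and 3 of 43 lectins. Of 269 cytochrome P450 genes 10 were higher and 2 were lower. The shares of annotated genes called were 40% for NF-YA, 16.7% for FLZ-type and 7.27% for MATE genes. They were 7.02% for receptor-like proteins, 6.98% for lectins, 6.90% for HXXXD acyltransferases and 4.46% for cytochrome P450 genes. Of all tested genes 3.11% were called, and with so few called genes per family these shares are a description.

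Genes that are repressed by sugar and induced by low energy formed the list with the most called genes. The list was chosen with earlier results of these data known, and 31 of its genes were called in at least 1 of the 4 comparisons. Its share of called genes and their direction are therefore a description only. Of 32 genes in this list 21 were called (65.6%), against the 3.11% of all tested genes, and all 21 were lower in SQH. Their median log2 fold change was -3.53, and their mean normalised counts ran from 146 to 12847. BT2, a BTB and TAZ domain protein that responds to sugar and nitrogen, changed most, by -6.36 ± 0.97 at a count of 2504. RZPF34, a RING zinc finger protein, changed by -4.77 ± 0.88, and AT3G15630 and MEE14 by -4.41 ± 0.99 and -4.38 ± 0.99. DIN10, a dark-inducible raffinose synthase family gene, changed by -4.35 ± 0.89 at a count of 9986 and AT3G15450 by -4.23 ± 0.91 at 12686.

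Regulators and enzymes of several kinds belong to that block. The F-box protein KMD1, which targets enzymes and cytokinin factors for breakdown, was at -4.16 ± 0.82, the thioredoxin ACHT5 at -4.25 ± 0.98, and the xylosidase BXL1 at -3.48 ± 0.96. Of 11 trehalose-6-phosphate synthase genes 3 were called and lower, all of the class thought to have a regulatory rather than an enzymatic part: TPS8 (-3.67 ± 0.53), TPS11 (-3.53 ± 0.67) and TPS9 (-2.99 ± 0.68). EXL1, needed for growth when carbon is short, was at -3.58 ± 0.91, AT2G20670 at -3.20 ± 0.86 and AT4G27450 at -2.87 ± 0.84. BT5 and BT4 were at -2.63 ± 0.75 and -2.62 ± 0.75, while the remaining called member of the family, BT1, which was in no list, was higher in SQH (2.02 ± 0.56, count 4454). ATG8E, which marks the autophagosome, was at -2.43 ± 0.59, and BZO2H3, the bZIP63 factor downstream of SnRK1, at -2.36 ± 0.43. The sugar transporter STP1 (-2.14 ± 0.67) and the raffinose synthase relative SIP2 (-1.86 ± 0.57) closed the list at counts of 12847 and 6694.

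The letters TATCCA, a sugar response element first known from cereal amylase promoters, were held on either strand by 29.3% of promoters of lower genes, 11.5% of higher genes and 16.1% of all genes. Without the genes of any list the shares were 27.1% for the lower and 11.2% for the higher genes. In the low energy list the element stood in 11 of the 21 called genes and in 8 of the 11 not called, so it did not separate them. The stretches of 5 genes of the list are shown as examples of its place, with the element in capitals, read as TGGATA where it lies on the opposite strand.
BT2, chr3:17910724-17910761, minus strand: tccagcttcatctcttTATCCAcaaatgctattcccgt
AT3G15630, chr3:5297921-5297958, minus strand: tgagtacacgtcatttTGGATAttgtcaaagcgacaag
KMD1, chr1:30241342-30241379, plus strand: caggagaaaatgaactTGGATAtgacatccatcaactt
TPS11, chr2:8108741-8108778, plus strand: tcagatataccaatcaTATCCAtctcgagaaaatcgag
AT2G20670, chr2:8913805-8913842, minus strand: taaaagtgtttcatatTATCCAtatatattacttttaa
The reverse complement of the element can overlap the I-box, GATAAG, in the letters GATA, and the I-box was held by 24.1% of promoters of lower genes, 13.9% of higher genes and 14.7% of all genes. The W-box, the site of WRKY factors, was searched in 2 forms. The form TTGACT was held by 31.8%, 20.7% and 21.8%, but the form TTGACC by similar shares of 15.4%, 14.6% and 14.1%. In the salicylic acid and defence list TTGACT stood in 2 of the 11 called genes and in 7 of the 21 not called. The rapid stress response element CGCGTT was held by 6.79%, 3.41% and 3.40%. The site II element TGGGCC, common in genes of growing cells, was held by fewer called genes of either direction, 9.88% of the lower and 6.81% of the higher, than of all genes (15.4%). The shares of A and T were alike, with medians of 69.3% in promoters of lower genes, 68.7% in higher genes and 68.0% in all genes.

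Among genes of the growing cell wall, the called xyloglucan endotransglucosylases and EXORDIUM genes were lower in SQH. This did not hold for all wall genes, since both called laccases and most called pectin genes were higher. Of 36 genes for xyloglucan enzymes, expansins and EXORDIUM proteins 24 were not called and 12 were called (33.3%, against 3.11% of all tested genes). Of the 12, 10 were lower with a median of -3.82. Of 33 xyloglucan endotransglucosylases, which cut and rejoin the xyloglucan tethers of the wall, 7 were called and all were lower. XTH33 had the largest change (-6.70 ± 1.41) at a count of 90.5, followed by XTH22 (-4.78 ± 0.63, count 7640), XTH25 (-4.77 ± 0.75), XTH9 (-3.66 ± 0.60), XTH4 (-3.21 ± 0.62), XTH6 (-1.95 ± 0.52) and XTH27 (-1.56 ± 0.48, count 8257). XTH25 and XTH22 lie 565 bases apart on the same strand. Of 8 EXORDIUM family genes, which promote cell expansion with brassinosteroids, 4 were called and lower, within a narrow range from EXL5 (-4.0 ± 0.97) over EXO (-3.89 ± 0.57) and EXL3 (-3.76 ± 0.61) to EXL1. Of 35 genes annotated in the expansin family 3 were called. EXPB3 was 1.99 ± 0.47 and EXPA4 1.70 ± 0.36 higher in SQH, while PNP-A (-3.34 ± 0.93), which is in the salicylic acid list, was lower. Of 58 arabinogalactan protein genes 3 were called and lower, AGP16 at -2.19 ± 0.44 and a count of 4908.

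Chosen after their values were seen, 3 genes of wall sensing were lower in SQH, all at counts of 1976 or more. They were the receptor kinases THE1 (-2.44 ± 0.54) and FER (-0.84 ± 0.24) and the extensin-type protein LRX3 (-3.27 ± 0.70). Related genes that were not called were not counted, so these 3 give no result about wall sensing. In FLH vs FLL FER was higher in FLH (0.91 ± 0.24).

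The called salicylic acid and defence genes were lower in SQH. Of 32 genes 11 were called, all lower, with a median of -3.34, and 6 of the 11 passed an adjusted p of 0.01. UGT76B1, which glucosylates salicylic acid and related immune signals, had the largest absolute change of the whole table, -9.39 ± 1.98 at a count of 616. PR1, the classical marker of the salicylic acid response, was at -5.02 ± 1.45 and a count of 13370, PCR1, a small cysteine-rich membrane protein, at -4.83 ± 1.15 and 8261, and the glucanase BG3 at -4.61 ± 1.11. NUDT6 (-3.43 ± 0.98), PNP-A (-3.34 ± 0.93) and AIG1 (-3.28 ± 1.03) followed. Regulators changed less: SARD1, which turns on salicylic acid synthesis, by -3.03 ± 0.77, WRKY53 by -2.51 ± 0.69, the syntaxin SYP122 by -2.16 ± 0.52 and the salicylic acid receptor NPR3 by -1.83 ± 0.43. Outside the list, 4 of 44 cysteine-rich receptor-like kinases were called and lower, from CRK31 (-4.01 ± 1.01) to CRK2 (-1.29 ± 0.34), as was AT1G33950 (-4.97 ± 1.48), the neighbour of AIG1.

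The 3 called genes of 21 in tetrapyrrole synthesis, the route to chlorophyll and haem, were lower. They were HEMC, the porphobilinogen deaminase (-1.44 ± 0.31), and the uroporphyrinogen decarboxylases HEME2 (-1.28 ± 0.33) and HEME1 (-1.05 ± 0.26), at counts of 6176 to 7026.

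**Figure D2:**
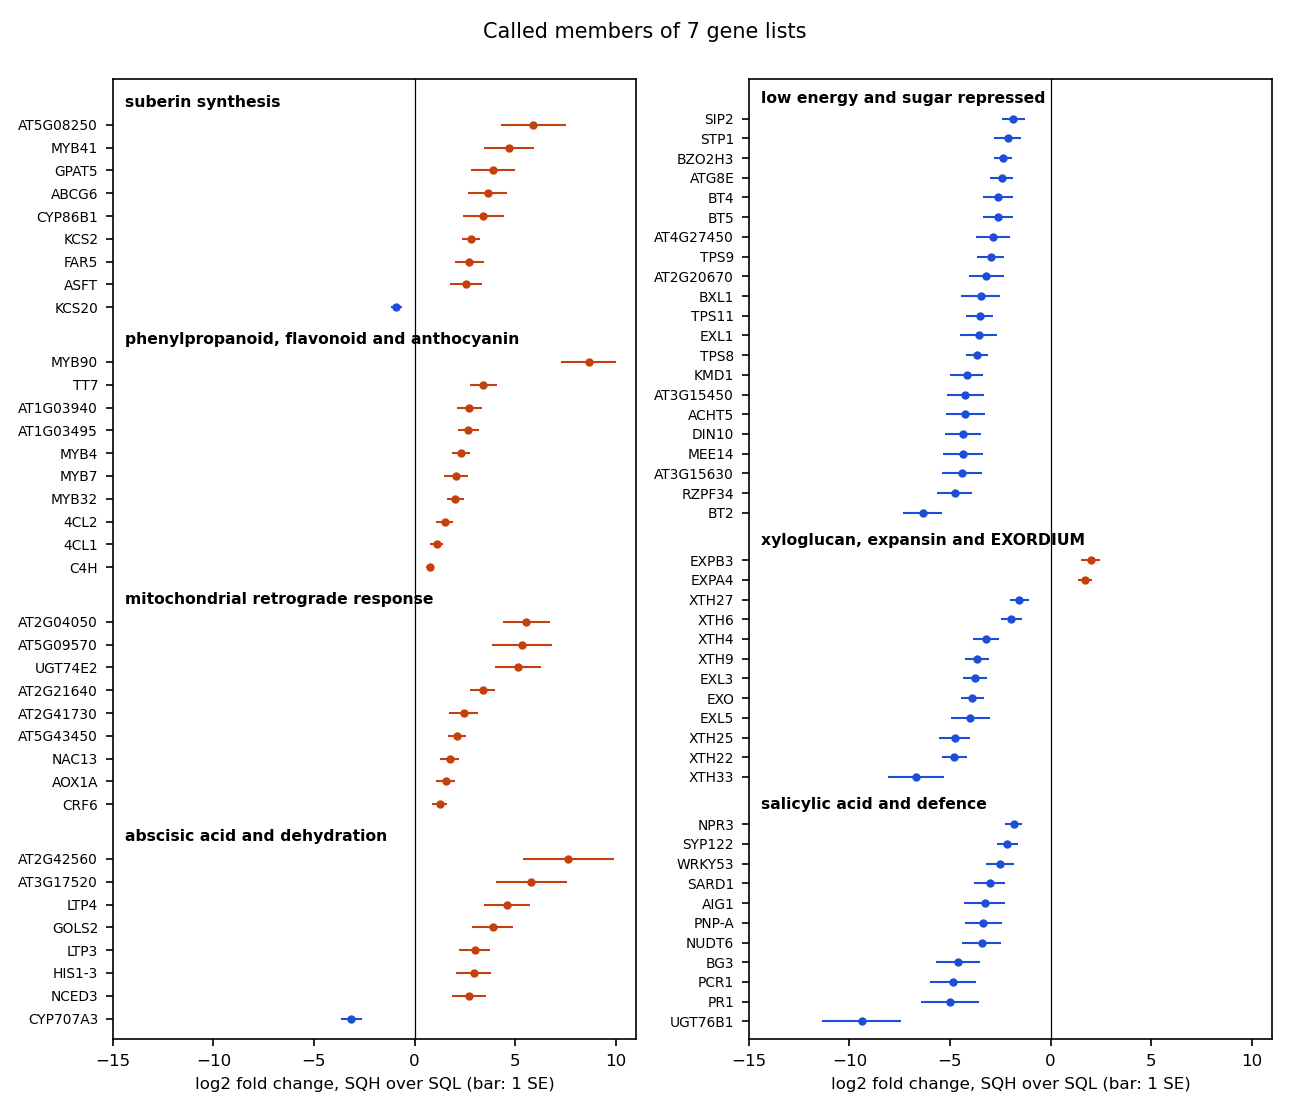
Log2 fold change of SQH over SQL for the called members of 7 gene lists, 1 point per gene with a bar of 1 SE on each side. All called phenylpropanoid and mitochondrial genes lie right of 0, all low energy and salicylic acid genes lie left of 0, and KCS20, CYP707A3, EXPB3 and EXPA4 are the exceptions in their lists.

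Among the remaining genes that fell, the largest changes at counts of at least 100 were those of AT1G50040, a DUF1005 gene (-6.75 ± 0.99), the 2-oxoglutarate dioxygenase AT3G13610, which is known from coumarin synthesis (-6.72 ± 1.75), the ERF factor DREB26 (-5.68 ± 0.79), the ATPase AT3G28510 (-5.59 ± 1.24) and the PQ-loop transporter AT4G36850 (-4.94 ± 1.12). At lower counts ACS11, a synthase of the ethylene precursor (-7.19 ± 1.32, count 41.2), and the WRKY factor ABO3 (-6.87 ± 1.83, count 38.1) stood out. Small p-values came with AT5G44020, a HAD acid phosphatase (-3.44 ± 0.44, count 7057), and MYB70 (-3.41 ± 0.46). The 5 highest mean normalised counts over the 12 libraries were those of lower genes: the lipid transfer family gene AT2G45180 (count 28631, -2.79 ± 0.57), ERD15, a dehydration-induced gene (23129, -1.30 ± 0.33), PATL1, a lipid-binding protein of the cell plate (22400, -2.91 ± 0.48), the glutathione transferase GSTF2 (16462, -3.96 ± 0.97) and the tonoplast water channel DELTA-TIP (16035, -1.64 ± 0.51). ERD15 averaged 6010 in SQH and 14785 in SQL, but 56856 in FLH. GSTF2 overlaps another locus over 85.3% of its length.

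**Figure D3:**
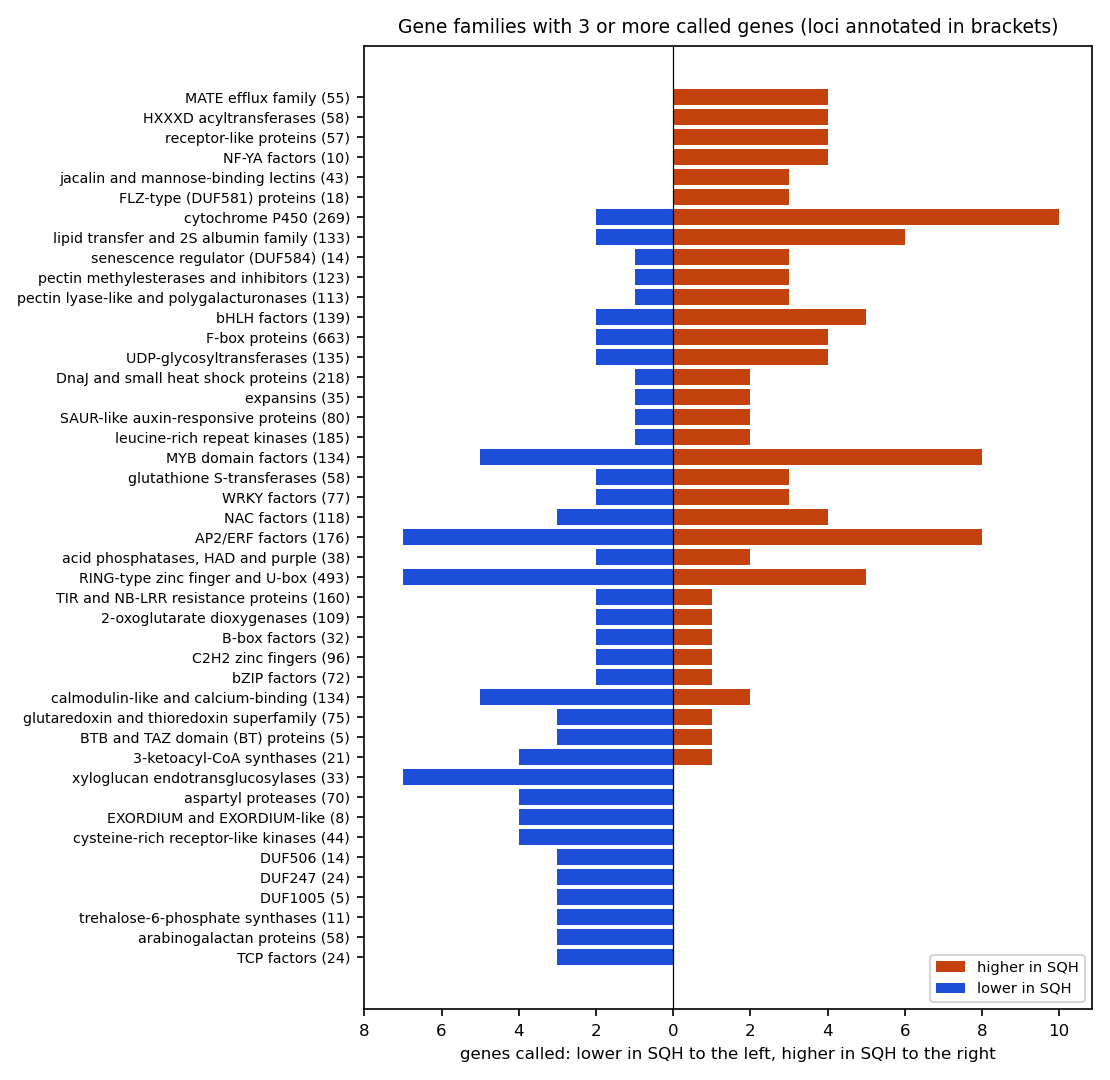
Number of called genes per gene family (horizontal axis, lower in SQH to the left of 0 and higher in SQH to the right), for families with 3 or more called genes, with the number of annotated loci in brackets. NF-YA, MATE, receptor-like protein, acyltransferase, lectin and FLZ-type families have bars to the right only, and the 7 xyloglucan endotransglucosylases form the longest bar to the left without a counterpart.

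The large MYB and AP2/ERF families of transcription factors held genes of both directions. Of 134 MYB genes 8 were higher and 5 lower. The lower ones include MYB70, MYB77 (-3.0 ± 0.66) and MYB73 (-2.53 ± 0.60), close relatives of each other, and MYB51 (-2.19 ± 0.60), a regulator of indole glucosinolates. The higher ones include the phenylpropanoid regulators given above. Of 176 AP2/ERF genes 8 were higher and 7 lower, and the lower ones changed more, with DREB26, DEWAX, AT1G77640 (-4.10 ± 0.92) and AT1G33760 (-4.02 ± 0.89), against 2.67 ± 0.68 for the largest higher value, that of AT2G22200. Of 24 TCP factors 3, namely TCP11, TCP14 and AT5G51910, were lower by 1.21 to 2.13 on the log2 scale. The elongase family was split as well: KCS8 (-3.87 ± 0.83), KCS12 (-3.77 ± 0.88), KCS16 (-3.02 ± 0.67) and KCS20 were lower and KCS2 was higher, out of 21 genes. Of uncharacterised families, 3 of 5 DUF1005, 3 of 14 DUF506 and 3 of 24 DUF247 genes were lower, while of 14 DUF584 genes 3 were higher and 1 was lower (AT5G60680, -1.53 ± 0.43). Of 70 aspartyl proteases 4 were lower. In all, 55 families held 120 of the higher genes (35.8%) and 114 of the lower genes (34.5%), and 57 higher and 39 lower genes had no function in the annotation.

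Of the 665 genes, 647 code for proteins (323 higher, 324 lower). The others were 13 pseudogenes, 3 other non-coding RNAs and the precursors of MIR824 (1.33 ± 0.39, higher) and MIR822 (-2.16 ± 0.49, lower), both overlapping other loci over most of their length. Neighbouring genes often moved together: of 28 pairs of adjacent protein-coding genes among the members, 12 were both higher, 13 both lower and 3 opposite. ATG8E and the abundant AT2G45180 form such a pair, 396 bases apart, as do the thioredoxin family genes AT4G15690 (-3.84 ± 0.81) and AT4G15700 (-3.04 ± 0.87) and the transporters UMAMIT46 (1.24 ± 0.26) and UMAMIT47 (0.93 ± 0.29). The last 2 pairs are paralogs, and sharing of reads between them was not tested.

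As labelled, the comparison of intensity under fluctuating light shares no library with SQH vs SQL, and the rule did not use its values. If the label of the second SQL library was exchanged with that of an FLL library, both comparisons are affected, which was not tested. In FLH vs FLL 9.89% of tested genes were called. Of the 335 genes higher in SQH 60 were called there (17.9%), 24 of them higher in FLH and 36 lower in FLH. Of the 330 genes lower in SQH 81 were called (24.5%), 10 of them lower in FLH and 71 higher in FLH. Thus 107 of 141 genes called under both patterns had opposite directions, and a gene called on opposite sides differs between the patterns by construction. These directions are therefore a description, with no test of the difference.

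The lists shared by both patterns show this gene by gene. Of the 21 low energy genes lower in SQH 3 were called in FLH vs FLL, and all 3 were higher in FLH: EXL1 (5.62 ± 0.91), BT2 (3.76 ± 0.95) and SIP2 (1.89 ± 0.57). The 3 salicylic acid genes called were also higher in FLH, WRKY53 (2.81 ± 0.69), SYP122 (2.75 ± 0.51) and NPR3 (1.31 ± 0.43). Among the wall genes XTH22 (4.84 ± 0.63), EXO (3.55 ± 0.57) and EXL5 (2.74 ± 0.97) were higher in FLH, whereas XTH6 was lower in FLH by nearly the same amount as in SQH (-1.95 ± 0.52 in both). The called genes of the phenylpropanoid, mitochondrial, iron and tetrapyrrole lists were not among those called in FLH vs FLL (0 of 10, 0 of 9, 0 of 3 and 0 of 3), where 9.89% of all tested genes were called. Other members of the tetrapyrrole list were called there, 4 of 21, all 4 lower in FLH. Whether their change differs between the patterns was not tested, because values of genes that are not called are not analysed here. Genes with a matching direction include GPT2 (4.49 ± 0.75 in FLH vs FLL), CYP94B1 (3.23 ± 0.80) and JAZ12 (0.65 ± 0.23). For the jasmonate list as a whole FLH vs FLL held 17 of 23 genes, 16 of them higher in FLH, against the 4 of 23 in SQH vs SQL.

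**Figure D4:**
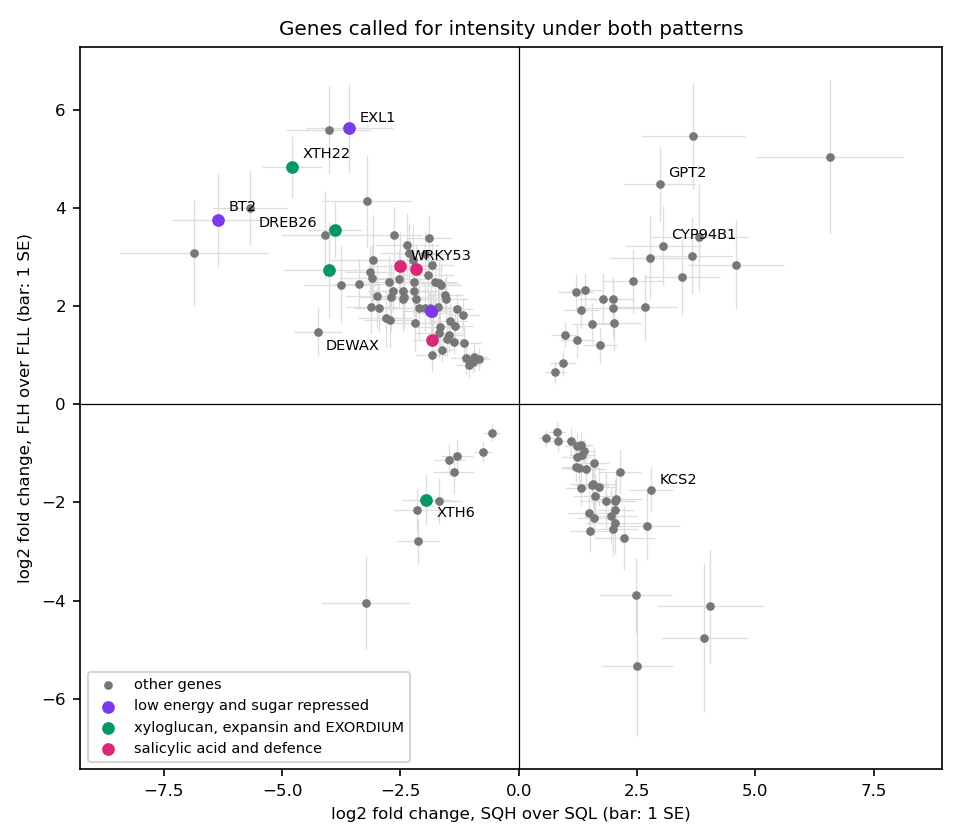
Log2 fold change of FLH over FLL (vertical axis) against that of SQH over SQL (horizontal axis) for the 141 genes called in both comparisons, with bars of 1 SE. The upper left holds 71 genes lower in SQH and higher in FLH, among them BT2, XTH22 and EXL1, and the lower right holds 36 genes with the reverse pattern, among them KCS2.

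The comparisons of pattern share libraries with SQH vs SQL, so their values are set side by side without a test. In SQH vs FLH, which uses the same SQH libraries, 273 of the 330 genes lower in SQH than in SQL were listed, all 273 of them negative, and 147 of the 335 higher genes, 144 of them positive. In SQL vs FLL, which uses the same SQL libraries, 92 of the higher genes were listed (86 negative) and 53 of the lower genes (45 positive). All 21 low energy genes were lower in SQH than in FLH, MEE14 by 9.66 on the log2 scale and AT3G15450 by 8.64.

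For genes listed in enough comparisons, the deposited values give the mean of each regime, without an error of its own. Of 88 lower genes with such means 82 had their lowest mean in SQH and 68 their highest in FLH. Of 53 higher genes 43 had their highest mean in SQH and 30 their lowest in FLH. All these genes were selected by their call in SQH vs SQL and by calls in other comparisons. The ranks of the regimes therefore follow in part from the selection. BT2 had a mean normalised count of 27.3 in SQH and 2235 in SQL, and of 7219 in FLH and 533 in FLL. DIN10 had 70.5 in SQH and 1434 in SQL, and 26993 in FLH and 11447 in FLL. Thus SQH was the lowest regime for both, but SQL lay above FLL for BT2 and below it for DIN10. XTH22 had 339 in SQH and 9336 in SQL, and 20180 in FLH and 706 in FLL, which puts SQH and FLL at the low end. TT7 had 5394 in SQH and 506 in SQL, and 73.2 in FLH and 48.9 in FLL, so both square regimes stood above both fluctuating ones. HIS1-3 had 238 in SQH and 31.0 in SQL, and 1363 in FLH and 453 in FLL.

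**Figure D5:**
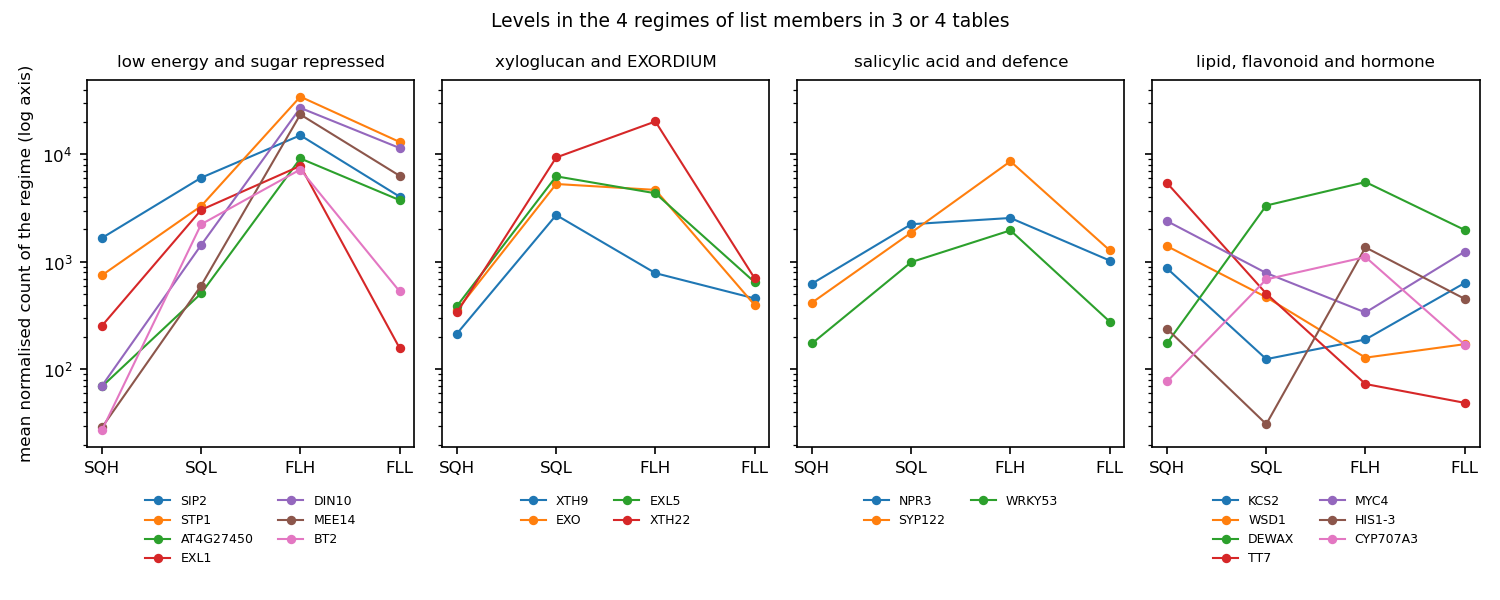
Mean normalised count in SQH, SQL, FLH and FLL (log axis) for list members whose 4 means follow from the deposited values, in 4 panels by list, 1 line per gene and no error bars. All 7 low energy genes but EXL1 are lowest in SQH and all 7 highest in FLH, while TT7, WSD1, KCS2 and MYC4 are highest in SQH.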

How the data were processed

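Polyadenylated leaf RNA was sequenced in 12 libraries, 3 for each of 4 regimes, and groups were taken from the library titles. The submitters' processing notes name HISAT2, SAMtools, featureCounts and DESeq2 and the build TAIR10, and versions and strandedness are not given in the sources used here. Depth per library is not analysed here, and with 3 libraries per regime the precision is that of the deposited SE.

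The data are 4 tables of called genes from the authors. A signal opens each deposited row: counts scaled by size factors and averaged over the libraries of all regimes. The log2 fold changes and SEs were deposited on the log2 scale by the authors, followed by a score, the Wald statistic the authors obtained as fold change over SE, and by the authors' p-value, raw and after Benjamini-Hochberg adjustment. No model was refitted, and fold changes were not shrunken. These columns are the authors' own comparison. They are described here because it defines the gene set, and no agreement with published findings was assessed.

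How many genes entered the test was worked out from adjusted over raw p, which is that number over the rank. All 665 loci matched RefSeq TAIR10.1, which supplied names, families (55 patterns of the product text), neighbours and promoters (250 bases before to 50 after the start), in which 17 motifs were searched on both strands. Gene names that RefSeq lacks are given as locus IDs. Intervals and regime means followed from the deposited columns. A planned z test of differences between intensity effects, tested on simulated data, is not reported, since it could not miss its threshold for genes called in opposite directions.

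Members and the 13 gene lists (331 loci) and 5 marker lists were chosen with earlier results of these data known. Named genes were, per direction and with counts from 100 upwards, the 10 with the largest change, the 5 with the smallest p and the 5 most abundant, called list members, up to 4 per family, the 3 with the largest change at any level, and those just inside the thresholds. Alternatives were stricter thresholds, count filters and the removal of overlapping loci. Computation used Python 3.11.15, pandas 2.3.3, NumPy 2.4.6, SciPy 1.17.1 and matplotlib 3.10.9.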

Additional observations from a re-analysis of the deposited data

Results flagged for a closer look

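For 107 genes the intensity effect was called in opposite directions under square and fluctuating light. Given here are the 19 of them that were named by rank or as list members. Others of the 107 that are named above by family or neighbourhood, such as MYB77 and MYB73, are left out. Their differences (SQH vs SQL minus FLH vs FLL, log2 scale) are a description with no test, because the requirement of a call on each side fixes the outcome of any test of the difference. The difference was negative for 13 of the 19 genes, which were lower in SQH and higher in FLH. These were the wall genes XTH22 (-9.62, SE 0.90), EXO (-7.44, SE 0.81) and EXL5 (-6.74, SE 1.37), the low energy genes BT2 (-10.11, SE 1.36), EXL1 (-9.20, SE 1.29) and SIP2 (-3.75, SE 0.80), and the defence genes WRKY53 (-5.32, SE 0.97), SYP122 (-4.91, SE 0.73) and NPR3 (-3.15, SE 0.61). The others were DREB26 (-9.67, SE 1.1), CYP707A3 (-5.85, SE 0.74), DEWAX (-5.73, SE 0.71) and ERD15 (-3.23, SE 0.47). The difference was positive for 6 of the 19 genes, higher in SQH and lower in FLH: AT4G26950 (8.15, SE 1.60), KCS2 (4.54, SE 0.66), MYC4 (3.48, SE 0.64), AT1G05170 (3.2, SE 0.71), AT5G67200 (2.34, SE 0.34) and AT5G43740 (1.26, SE 0.24). As labelled, the second SQL library, which stands with the FLL libraries in the alignment statistics, enters only the square light term. If its label was exchanged with that of an FLL library, both terms are affected. The part of this library in these differences was not tested.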

How the results depend on the processing

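Stricter thresholds removed more genes that were higher in SQH than lower ones. At an adjusted p of at most 0.01 there were 324 genes, 134 higher and 190 lower (41.4% higher, against 50.4% as deposited). With Bonferroni adjustment there were 104, 28 higher and 76 lower (26.9% higher), and the median absolute log2 fold change of the lower genes was 3.03. Among genes with counts from 100 upwards the share of higher genes was 44.4%. A log2 fold change of at least 1 (617 genes), a 95% interval beyond 0.5 (599), a count of at least 10 (650) and the removal of overlapping loci (505) kept the total within 1.5 times. For the called members of the lists, 144 values stayed within 1.5 times and 38 did not, and of the motif shares 31 did and 3 did not. Leaving out libraries was not run, since values per library are not analysed here. No paired analysis was possible because the tables carry no values per library. Counts under 10 were those of 13 higher and 2 lower genes, and the part of depth in their values was not tested.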

Other observations

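Of genes acting on pectin, the matrix polysaccharide of the wall, shares near the 3.11% of all tested genes were called. Of 123 pectin methylesterases and their inhibitors 4 were called (3.25%). Those higher in SQH were AT1G62770 (3.03 ± 0.86, SE), AT2G01610 (2.74 ± 0.76) and AT3G43270 (1.73 ± 0.35), and AT5G20740 was lower (-3.39 ± 0.76) at a mean normalised count of 22.8. Of 113 pectin lyase-like genes and polygalacturonases 4 were called (3.54%). Of these 3 were higher, with AT4G24780 (2.04 ± 0.44) at a count of 5757, and AT4G23820, the neighbour of WRKY53, was lower (-2.27 ± 0.60) at 2245.

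Called genes of detoxifying and calcium-binding proteins went in both directions. Of 58 glutathione transferases, GSTF5 (2.47 ± 0.73), GSTU6 (1.70 ± 0.48) and GSTU7 (1.26 ± 0.27, 66.0% of its locus overlapping another) were higher in SQH and GSTF7 (-3.52 ± 1.0) and GSTF2 were lower, the last 2 at counts of 3134 and 16462. Of 134 calmodulin-like and calcium-binding genes 2 were higher and 5 lower. The shares called were 8.62% of the glutathione transferases and 5.22% of the calcium-binding genes, against 3.11% of all tested genes. With so few called genes these counts are a description.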
